A study of Homo sapiens with 48 samples.

Results

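Homologous recombination and the Fanconi anaemia pathway were followed here through 33 genes, chosen by name from the table of gene counts. Each of the 33 had to hold at least 1000 counts in total over the 48 libraries, and 33 of 33 did, from 1632 counts for RAD54L to 143974 for NBN. They stand among 19509 genes with any count and 12535 genes that reached the same minimum. The members were grouped by role into 7 damage signalling genes, 5 end resection genes, 7 genes of the Fanconi core complex, the 2 genes of the FANCD2 and FANCI pair, 5 genes of the BRCA complexes, 5 RAD51C, XRCC and RAD54 genes, and 2 genes of the BLM dissolvasome.

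Homologous recombination repairs a DNA double-strand break by copying the intact sister chromatid. Breaks and stalled forks are sensed by kinases, the ends are trimmed back to single strands, and BRCA proteins together with the RAD51C, XRCC and RAD54 proteins promote pairing with the matching duplex. The Fanconi pathway unhooks crosslinks between the DNA strands: a core ubiquitin ligase modifies a clamp of FANCD2 and FANCI, and the break that results is handed to homologous recombination. Many of these genes are transcribed most in S and G2 phase, and oncogene-induced senescence is a stable arrest with persistent DNA damage signalling.

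The cells were IMR90 ER:RAS, human lung fibroblasts that carry oncogenic HRAS fused to the oestrogen receptor. In these cells 4-hydroxytamoxifen (4OHT) switches RAS on and the solvent DMSO serves as control, and both arms carried the fusion. Cells were treated for 6 days, then transfected with siRNA, and after 2 further days in reduced serum the polyadenylated RNA was sequenced. The 6 groups of 8 libraries were DMSO siNT, 4OHT siNT, DMSO siSF3B1, 4OHT siSF3B1, DMSO siRBM39 and 4OHT siRBM39, where siNT is non-targeting siRNA, and SF3B1 and RBM39 are splicing factors. Each group held 2 siRNAs (siNT1 and siNT2, siSF3B1-13 and siSF3B1-16, or siRBM39-06 and siRBM39-08) with 4 replicates each. All libraries come from 1 line. The methods call replicates of work in culture independent experiments, while the labels do not say so for these libraries, and p-values measure the spread between these libraries only.

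Libraries held 31467221 to 52734636 gene counts. SF3B1 changed by -3.42 (log2, siSF3B1 in DMSO) and -3.59 (4OHT), and RBM39 by -2.63 (siRBM39 in DMSO) and -2.91 (4OHT). The 7 fibroblast markers were present in each library (COL1A1 at 3056 to 30913 CPM and PDGFRB at 66.2 to 499.6 CPM, counts scaled to library size), but 6 of the 7 were lower and 0 higher with RAS on, and their summed level was 48719 to 56350 CPM in DMSO siNT and 14508 to 15390 CPM in 4OHT siNT. Of 5 immune markers CD68 was at 31.97 to 112 CPM and higher with RAS (0.97 on the log2 scale), PTPRC stayed at or under 0.198 CPM and CD3E was at 0 in 46 libraries. The 5 epithelial markers summed to at most 10.4 CPM, apart from 4OHT siRBM39 with up to 33.7 CPM, where KRT5 reached 29.8 CPM, and SFTPC was at 0 in 43 libraries. Among endothelial markers VWF had the highest level, at most 7.41 CPM. The part of these markers in the members' changes was not tested. Replicate 4 of siRBM39-08 in 4OHT stood apart: its genes scattered around the other libraries of its siRNA and treatment with an SD of 0.816 on the log2 scale, against 0.376 for the next library. Counts and most changes of single members for siRBM39 in 4OHT are therefore also given without it: of the 33 members 0 lost and 1 gained a call (XRCC3, at -0.58), and the called changes of 2, RAD50 and FANCG, moved by over 1.5 times.

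With RAS switched on, most of the 33 genes were expressed at lower levels. In 4OHT siNT against DMSO siNT, 21 members fell and 6 rose, while of all genes 38.9% fell and 39.5% rose (edgeR quasi-likelihood test, Benjamini-Hochberg adjusted p under 0.05 over 12535 genes, as in each count of genes here). The median log2 fold change of the members was -0.44, against 0.0042 over all genes. Markers of proliferating cells moved with this result: 11 of 12 fell and 1 rose, and their summed level was 214 to 274 CPM without and 116 to 125 CPM with active RAS. Their part in the members' fall was not tested, and in bulk RNA fewer cycling cells and less RNA per cell cannot be told apart.

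Depletion of SF3B1 also lowered many members in cells of either treatment. In DMSO, 20 fell and 3 rose (37.5% and 34.8% of all genes), with a median log2 fold change of -0.47 against -0.0062 over all genes. In 4OHT, 15 fell and 6 rose (38.3% and 36.8%), and the medians were -0.13 and -0.0023. Proliferation markers fell too, 10 of 12 in DMSO and 9 of 12 in 4OHT, with 2 higher in each, and their summed level in DMSO siSF3B1 was 144 to 160 CPM and in 4OHT siSF3B1 103 to 116 CPM. The part of these markers was not tested.

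Depletion of RBM39 moved fewer members than that of SF3B1, and also a smaller share of all genes. In DMSO, 10 fell and 4 rose (22.2% and 22.8% of all genes), with a median of -0.12 against 0.018 over all genes. In 4OHT, 12 fell and 7 rose (25.9% and 28.1%), with medians of -0.080 and 0.026, and without the library that stood apart 13 fell and 7 rose. Of the 12 proliferation markers 2 rose and 1 fell in DMSO, and 3 rose and 1 fell in 4OHT, with summed levels of 216 to 263 CPM and 121 to 151 CPM. All the knockdown comparisons of a treatment share the same 8 siNT libraries. In either direction 81.8% of the members were called with RAS (78.4% of all genes), 69.7% and 63.6% after siSF3B1 in DMSO and 4OHT (72.3% and 75.1%), and 42.4% and 57.6% after siRBM39 (45% and 54.0%). Counts by role, over 2 to 7 genes each, are a description to be read beside these shares.

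**Figure D1:**
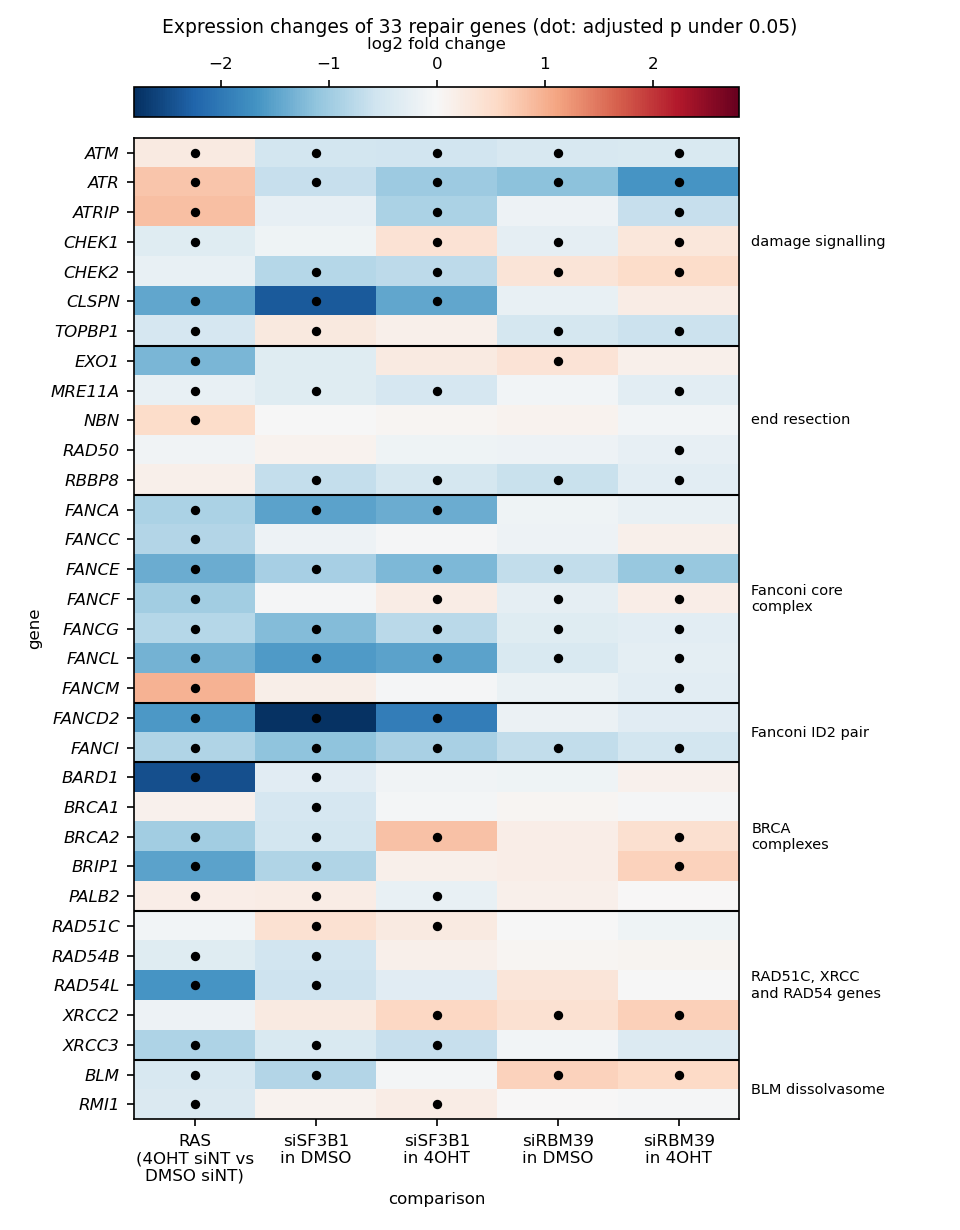
Log2 fold change (colour) of 33 genes (rows, by role) in 5 comparisons (columns), with a dot where the adjusted p was under 0.05. Lower levels (blue) prevail in the RAS column (21 lower, 6 higher) and in siSF3B1 in DMSO (20 lower, 3 higher), and siRBM39 in DMSO has the most members without a dot (19).

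Damage signalling split in direction when RAS was on. ATM, ATR and ATRIP rose while CHEK1, CLSPN and TOPBP1 fell, and CHEK2 differed by -0.20 (SE 0.097) with an adjusted p of 0.0523. After siSF3B1, 4 of the 7 fell and 1 rose in DMSO, and 5 fell and 1 rose in 4OHT. After siRBM39, 4 fell and 1 rose in DMSO, and 4 fell and 2 rose in 4OHT.

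ATR, the kinase that answers to single-stranded DNA at stalled forks, was measured at 24.1, 26.7 and 30.3 CPM in DMSO siNT and at 43.1, 45.96 and 48.6 CPM in 4OHT siNT (lowest, median and highest of 8 libraries, as in each set of values in this order). In DMSO siSF3B1 the values were 15.3, 16.9 and 19.6 CPM, and in 4OHT siSF3B1 20.1, 22.2 and 25.05 CPM. In DMSO siRBM39 they were 9.55, 12.5 and 13.5 CPM, and in 4OHT siRBM39 9.30, 15.04 and 17.4 CPM. No knockdown library of a treatment reached its siNT libraries, and the rise with RAS did not overlap either. ATR rose by 0.78 on the log2 scale with RAS (SE 0.074, adjusted p = 2.41e-13). It changed by -0.65 (SE 0.075) after siSF3B1 in DMSO and by -1.03 (SE 0.075) in 4OHT, and by -1.15 (SE 0.076, adjusted p = 1.83e-17) after siRBM39 in DMSO and -1.66 (SE 0.076, adjusted p = 1.41e-23) in 4OHT. Without the library that stood apart, the last of these was -1.58. ATR had the largest fall of the 33 genes in both siRBM39 comparisons, and it fell further with siRBM39 than with siSF3B1 (difference 0.50, SE 0.076 in DMSO, and 0.63, SE 0.076 in 4OHT, siSF3B1 minus siRBM39).

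ATRIP, the partner that brings ATR to coated single strands, stood at 5.39, 5.59 and 6.02 CPM in DMSO siNT and at 9.67, 10.1 and 10.97 CPM in 4OHT siNT. The groups did not overlap, and ATRIP rose by 0.85 (SE 0.10, adjusted p = 3.97e-10). In 4OHT it changed by -0.88 (SE 0.10) after siSF3B1 and by -0.64 (SE 0.10) after siRBM39, whereas in DMSO the differences were -0.23 (SE 0.11) and -0.13 (SE 0.11), neither past the threshold. Without the library that stood apart the change after siRBM39 in 4OHT was -0.82. ATM, the kinase of double-strand breaks, was at 50.3, 55.5 and 62.4 CPM in DMSO siNT and 61.2, 65.2 and 73.9 CPM in 4OHT siNT, which overlap, and the rise was 0.25 (SE 0.095, adjusted p = 0.0152). ATM was at 35.5, 39.7 and 41.3 CPM in DMSO siSF3B1 and at 39.97, 46.3 and 48.8 CPM in 4OHT siSF3B1, below each siNT library of its treatment. In DMSO siRBM39 the values were 29.7, 40.3 and 48.2 CPM and in 4OHT siRBM39 23.5, 52.5 and 58.4 CPM. ATM fell in each knockdown comparison, by 0.43 to 0.53 on the log2 scale, and without the library that stood apart its change after siRBM39 in 4OHT was -0.33.

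CLSPN, the adaptor through which ATR reaches CHEK1, held 2.24, 2.62 and 3.48 CPM in DMSO siNT and 0.785, 0.965 and 1.31 CPM in 4OHT siNT. After siSF3B1 it was at 0.350, 0.499 and 0.759 CPM in DMSO and 0.186, 0.356 and 0.590 CPM in 4OHT. Each siSF3B1 library lay below each siNT library of its treatment. CLSPN changed by -1.45 (SE 0.15) with RAS, by -2.36 (SE 0.16, adjusted p = 5.10e-18) after siSF3B1 in DMSO and by -1.46 (SE 0.19, adjusted p = 1.49e-09) after siSF3B1 in 4OHT. After siRBM39 the differences were -0.21 (SE 0.13) in DMSO and 0.21 (SE 0.16) in 4OHT, neither past the threshold, and the direct comparison of both knockdowns gave -2.16 (SE 0.16) in DMSO and -1.67 (SE 0.18) in 4OHT.

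TOPBP1, which activates ATR, was at 29.6, 31.5 and 34.9 CPM in DMSO siNT and 20.2, 23.4 and 25.2 CPM in 4OHT siNT, a change of -0.46 (SE 0.090). In DMSO siRBM39 it was at 17.6, 24.3 and 26.4 CPM and in 4OHT siRBM39 at 8.61, 15.9 and 18.04 CPM, without overlap with siNT in either treatment. The changes after siRBM39 were -0.48 (SE 0.089) and -0.61 (SE 0.091, adjusted p = 2.12e-07), and the latter was -0.52 without the library that stood apart. After siSF3B1 in DMSO, TOPBP1 rose by 0.28 (SE 0.089), but with siSF3B1-13 alone it differed by 0.13 with an adjusted p of 0.278.

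The effector kinases CHEK1 and CHEK2 answered differently to siSF3B1, while both rose after siRBM39 in 4OHT. CHEK1, which restrains the cell cycle below ATR, was at 14.7, 15.2 and 16.3 CPM in DMSO siNT, 10.9, 12.3 and 13.2 CPM in 4OHT siNT and 14.6, 16.5 and 17.9 CPM in 4OHT siSF3B1. With RAS it changed by -0.34 (SE 0.082), and in 4OHT it rose by 0.41 (SE 0.082, adjusted p = 1.82e-05) after siSF3B1, with no overlap in either case. After siRBM39 in DMSO CHEK1 fell, to 9.06 to 15.1 CPM, a fall not called with siRBM39-08 alone. In 4OHT siRBM39 it rose and was at 9.64 to 17.4 CPM, where the lowest value was that of the library that stood apart. CHEK2, the kinase below ATM, was at 5.85, 6.33 and 6.95 CPM in DMSO siNT and 4.999, 5.50 and 6.13 CPM in 4OHT siNT. After siSF3B1 it was at 2.92, 3.63 and 4.76 CPM in DMSO and 2.84, 3.29 and 3.87 CPM in 4OHT, and after siRBM39 at 6.61, 8.65 and 9.59 CPM and 6.76, 7.28 and 12.2 CPM. The siSF3B1 libraries lay below and the 4OHT siRBM39 libraries above the siNT libraries of their treatment, while DMSO siRBM39 overlapped DMSO siNT. CHEK2 changed by -0.80 (SE 0.099) and -0.74 (SE 0.10) after siSF3B1, and it rose by 0.36 (SE 0.095) and 0.52 (SE 0.096, adjusted p = 1.07e-05) after siRBM39. Without the library that stood apart the last rise was 0.41. Both knockdowns thus moved CHEK2 in opposite directions, and the direct comparison gave -1.16 (SE 0.099) in DMSO and -1.26 (SE 0.10) in 4OHT.

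Of the end resection genes, EXO1 and MRE11A fell with RAS and NBN rose. NBN, the subunit that tethers ATM to the MRE11A and RAD50 nuclease complex, was at 58.4, 61.0 and 65.9 CPM in DMSO siNT and 81.8, 87.8 and 92.2 CPM in 4OHT siNT. The groups did not overlap and the rise was 0.51 (SE 0.068, adjusted p = 3.78e-09). EXO1, the exonuclease of long-range resection, changed by -1.29 (SE 0.18) with RAS and MRE11A by -0.21 (SE 0.073). RAD50 differed by -0.10 (SE 0.087) with RAS and by 0.11 (SE 0.087) and -0.13 (SE 0.087) after siSF3B1, none past the threshold.

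RBBP8 (CtIP), which starts resection, was at 12.7, 13.3 and 16.3 CPM in DMSO siNT and at 6.90, 8.81 and 11.5 CPM in DMSO siRBM39, without overlap. It changed by -0.62 (SE 0.085, adjusted p = 4.29e-08) there, by -0.30 (SE 0.084) after siRBM39 in 4OHT, and by -0.67 (SE 0.085) and -0.49 (SE 0.084) after siSF3B1 in DMSO and 4OHT. MRE11A fell after siSF3B1 in both treatments, by 0.33 and 0.46 on the log2 scale. After siRBM39 in DMSO, EXO1 rose by 0.37 (SE 0.16, adjusted p = 0.0497), called with neither siRNA alone. After siRBM39 in 4OHT MRE11A and RAD50 fell by 0.30 and 0.24, and without the library that stood apart by 0.24 and 0.14, with RBBP8 then at -0.23. RAD50 and RBBP8 were not called there with siRBM39-06 alone (-0.12 and -0.16, adjusted p = 0.0936 and 0.0629).

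Of the Fanconi core complex 6 of 7 genes fell with RAS, and FANCM rose. FANCM, the translocase that brings the core to DNA, was at 3.39, 3.70 and 4.53 CPM in DMSO siNT and 6.86, 7.46 and 8.59 CPM in 4OHT siNT, without overlap. It rose by 0.96 (SE 0.099, adjusted p = 3.09e-12), the largest rise of the 33 genes with RAS. The falls ranged from -0.81 (SE 0.11) for FANCG to -1.38 (SE 0.11) for FANCE. After siSF3B1 4 of the 7 fell in each treatment, namely FANCA, FANCE, FANCG and FANCL.

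FANCL, the ubiquitin ligase subunit, was at 5.95, 6.67 and 7.09 CPM in DMSO siNT, 2.30, 2.62 and 2.97 CPM in 4OHT siNT, 1.82, 2.31 and 2.43 CPM in DMSO siSF3B1 and 0.619, 0.910 and 1.58 CPM in 4OHT siSF3B1. Neither siSF3B1 group overlapped its siNT group. FANCL changed by -1.32 (SE 0.10) with RAS and by -1.58 (SE 0.10, adjusted p = 1.63e-18) and -1.50 (SE 0.12, adjusted p = 9.19e-16) after siSF3B1 in DMSO and 4OHT. FANCA, a scaffold of the core, was at 3.68, 4.01 and 5.21 CPM in DMSO siNT and 0.977, 1.46 and 2.12 CPM in DMSO siSF3B1. In 4OHT it was at 1.82, 2.20 and 2.75 CPM with siNT and 0.650, 0.871 and 1.04 CPM with siSF3B1, again without overlap. The changes after siSF3B1 were -1.50 (SE 0.12) and -1.38 (SE 0.14), and after siRBM39 FANCA differed by -0.12 (SE 0.12) and -0.21 (SE 0.13), neither past the threshold.

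FANCE, which links the core to FANCD2, was at 6.88, 8.58 and 9.60 CPM in DMSO siNT and 4.06, 5.03 and 6.63 CPM in DMSO siRBM39. In 4OHT it was at 2.34, 3.17 and 3.94 CPM with siNT and 1.22, 1.49 and 2.10 CPM with siRBM39, so that neither pair of groups overlapped. FANCE changed by -0.68 (SE 0.11, adjusted p = 1.30e-06) and -1.05 (SE 0.13, adjusted p = 8.90e-10) after siRBM39, the latter -1.12 without the library that stood apart. After siSF3B1 FANCE changed by -0.94 (SE 0.11) in DMSO and -1.25 (SE 0.13) in 4OHT. The direct comparison of both knockdowns gave -0.25 (SE 0.11, adjusted p = 0.0449) in DMSO and -0.20 (SE 0.14, adjusted p = 0.188) in 4OHT. FANCG and FANCL also fell after siRBM39 in both treatments, by 0.28 to 0.43. In 4OHT neither was called with siRBM39-08 alone (-0.17 and -0.12), and the library that stood apart was the highest of its group for FANCG, which changed by -0.29 with it and by -0.45 without it. FANCF fell by 0.25 in DMSO and rose by 0.18 in 4OHT, the former not called with siRBM39-08 alone (-0.09) and the latter not with siRBM39-06 alone (0.04). FANCC, another core subunit, went in opposite directions with the 2 siRNAs. It was at 15.6 to 18.8 CPM in DMSO siNT, 8.38 to 9.50 CPM with siRBM39-06 and 20.5 to 23.7 CPM with siRBM39-08, and in 4OHT at 8.85 to 10.4, 6.31 to 7.67 and 12.9 to 14.4 CPM. Neither siRNA overlapped siNT, and with siRBM39-06 alone FANCC changed by -0.92 and -0.40 and with siRBM39-08 alone by 0.37 and 0.57 (adjusted p = 1.85e-15, 2.53e-06, 2.80e-06 and 4.42e-10), so the pooled differences of -0.13 and 0.14, not called, describe neither siRNA.

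FANCD2, the ubiquitylated subunit of the clamp, had the largest fall of the 33 genes in both siSF3B1 comparisons. It was at 3.13, 3.91 and 4.87 CPM in DMSO siNT and 0.367, 0.576 and 0.783 CPM in DMSO siSF3B1. In 4OHT it was at 1.01, 1.27 and 1.48 CPM with siNT and 0.183, 0.331 and 0.507 CPM with siSF3B1. Each siSF3B1 library was thus below each siNT library, in DMSO and in 4OHT. FANCD2 changed by -1.61 (SE 0.14, adjusted p = 3.20e-14) with RAS, by -2.76 (SE 0.16, adjusted p = 1.69e-20) after siSF3B1 in DMSO and by -1.93 (SE 0.19, adjusted p = 8.27e-13) after siSF3B1 in 4OHT. After siRBM39 it differed by -0.17 (SE 0.13) and -0.31 (SE 0.16), neither past the threshold.

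FANCI, its partner, was at 10.3, 11.9 and 15.5 CPM in DMSO siNT and 6.87, 7.51 and 8.30 CPM in DMSO siRBM39, without overlap. It fell in each of the 5 comparisons: by 0.85 with RAS, by 1.13 and 0.91 after siSF3B1, and by 0.69 (SE 0.089, adjusted p = 1.06e-08) and 0.51 (SE 0.093) after siRBM39, the last 0.56 without the library that stood apart.

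Promoters of the 2 members that fell most after siSF3B1 in DMSO, CLSPN and FANCD2, are shown with that of XRCC2, since all of them hold the letters TTTCCCGC, an E2F-like motif of cell cycle genes. Of 30 members with a promoter in RefSeq (GRCh38.p14, 250 bases before to 50 after the start), 4 held these letters on either strand (CLSPN, FANCC, FANCD2 and XRCC2), which is 13.3%, against 1.66% of 27305 promoters of the same length. The promoter of FANCL, second to FANCD2 in the fall after siSF3B1 in 4OHT, does not hold them. The related TTTGGCGC and TTTGGCGG were in 0 of the 30 (0.659% and 0.681% of all). TTTGAA was in 3 of the 30 (15.4% of all) and CCAAT in 15 of the 30 (35.7% of all). Each motif was searched on both strands. Capitals mark TTTCCCGC and CCAAT on the reverse strand, where they read GCGGGAAA and ATTGG.
CLSPN, chr1:35769929-35770228, minus strand: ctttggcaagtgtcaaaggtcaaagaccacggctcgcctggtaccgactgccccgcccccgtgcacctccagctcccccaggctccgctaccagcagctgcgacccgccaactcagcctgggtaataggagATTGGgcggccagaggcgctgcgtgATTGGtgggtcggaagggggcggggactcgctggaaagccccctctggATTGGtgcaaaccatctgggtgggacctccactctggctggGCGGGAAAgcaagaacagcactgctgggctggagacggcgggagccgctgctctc
FANCD2, chr3:10026187-10026486, plus strand: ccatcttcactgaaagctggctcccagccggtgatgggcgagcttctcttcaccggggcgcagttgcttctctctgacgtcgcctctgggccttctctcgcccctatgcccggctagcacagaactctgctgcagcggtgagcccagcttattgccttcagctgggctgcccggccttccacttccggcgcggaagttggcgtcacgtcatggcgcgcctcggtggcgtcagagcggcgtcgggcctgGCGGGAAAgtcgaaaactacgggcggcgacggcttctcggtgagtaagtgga
XRCC2, chr7:152676092-152676391, minus strand: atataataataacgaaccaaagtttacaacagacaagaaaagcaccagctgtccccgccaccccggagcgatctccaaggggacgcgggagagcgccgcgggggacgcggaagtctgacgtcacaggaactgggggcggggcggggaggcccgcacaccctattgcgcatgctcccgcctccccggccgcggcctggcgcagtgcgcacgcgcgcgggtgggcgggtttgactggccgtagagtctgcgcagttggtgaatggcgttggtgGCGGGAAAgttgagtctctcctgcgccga
The 4 promoters with these letters did not share a response: with RAS, CLSPN, FANCD2 and FANCC fell while XRCC2 differed by -0.14 (SE 0.13), and after siSF3B1 in 4OHT XRCC2 rose. A match of letters is a description, not a binding site.

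Among the BRCA complexes BARD1, BRCA2 and BRIP1 fell with RAS, PALB2 rose by 0.18 (SE 0.060) and BRCA1 differed by 0.12 (SE 0.095) without passing the threshold. BARD1, the partner that BRCA1 needs as a ubiquitin ligase, was at 3.29, 3.81 and 4.67 CPM in DMSO siNT and 0.471, 0.699 and 0.903 CPM in 4OHT siNT. The groups did not overlap, and the change of -2.45 (SE 0.17, adjusted p = 1.86e-18) was the largest fall of the 33 genes with RAS. BRCA1 itself was at 3.35, 5.37 and 6.88 CPM in DMSO siNT and 5.41, 5.77 and 6.65 CPM in 4OHT siNT. BRIP1, the helicase that binds BRCA1, was at 3.35, 4.26 and 5.05 CPM in DMSO siNT and 1.23, 1.49 and 1.67 CPM in 4OHT siNT, and changed by -1.51 (SE 0.14, adjusted p = 5.15e-14) without overlap.

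BRCA2, a mediator of strand exchange, was at 2.03, 2.54 and 3.81 CPM in DMSO siNT, 1.02, 1.32 and 1.77 CPM in 4OHT siNT, 1.02, 1.73 and 2.66 CPM in DMSO siSF3B1 and 1.82, 2.35 and 3.25 CPM in 4OHT siSF3B1. In 4OHT each siSF3B1 library was above each siNT library, while in DMSO the groups overlapped. BRCA2 changed by -0.97 (SE 0.18) with RAS and by -0.50 (SE 0.17) after siSF3B1 in DMSO, and it rose by 0.82 (SE 0.18, adjusted p = 8.02e-05) after siSF3B1 in 4OHT. Of the 5 genes 4 fell after siSF3B1 in DMSO (BARD1, BRCA1, BRCA2 and BRIP1) and PALB2 rose, while in 4OHT 1 fell and 1 rose. BRIP1 was at 1.92 to 2.89 CPM in DMSO siSF3B1. After siRBM39, BRCA2 and BRIP1 rose in 4OHT by 0.45 (SE 0.18) and 0.65 (SE 0.14), and without the library that stood apart by 0.54 and 0.74. In DMSO 0 of the 5 genes passed the threshold after siRBM39 in edgeR, with 1 at an unadjusted p under 0.05, PALB2.

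Of the RAD51C, XRCC and RAD54 genes, RAD54L, RAD54B and XRCC3 fell with RAS. RAD54L, a DNA translocase of strand exchange, was at 0.958, 1.28 and 1.59 CPM in DMSO siNT and 0.246, 0.355 and 0.652 CPM in 4OHT siNT, and changed by -1.65 (SE 0.20, adjusted p = 4.25e-10) without overlap. RAD51C was the member that rose after siSF3B1 in both treatments: it was at 6.98, 8.40 and 9.48 CPM in DMSO siNT and 10.2, 11.2 and 12.9 CPM in DMSO siSF3B1, and at 6.56, 8.25 and 8.94 CPM and 9.11, 9.59 and 10.2 CPM in the 4OHT groups. The rises were 0.42 (SE 0.087, adjusted p = 3.98e-05) and 0.26 (SE 0.088, adjusted p = 0.00715), and with siSF3B1-13 alone the latter was 0.24 with an adjusted p of 0.0511, and with siNT2 alone as control 0.18 with an adjusted p of 0.138. XRCC2, which acts in a complex with RAD51C, was at 0.718, 1.02 and 1.28 CPM in 4OHT siNT and 1.41, 1.53 and 2.10 CPM in 4OHT siRBM39, without overlap. It rose after siRBM39 by 0.67 (SE 0.12, adjusted p = 8.86e-06) in 4OHT and 0.43 (SE 0.12) in DMSO, the former 0.68 without the library that stood apart, and after siSF3B1 by 0.59 (SE 0.12) in 4OHT. XRCC3 fell after siSF3B1 in DMSO and 4OHT, by 0.42 and 0.65.

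BLM, the helicase that dissolves double Holliday junctions with RMI1, was at 0.940, 1.14 and 1.52 CPM in DMSO siNT and 1.62, 1.88 and 2.20 CPM in DMSO siRBM39, without overlap. It rose by 0.65 (SE 0.16, adjusted p = 0.000820) in DMSO and by 0.55 (SE 0.17, adjusted p = 0.00709) in 4OHT after siRBM39, the latter 0.56 without the library that stood apart. With siNT1 alone as control the rise in DMSO was 0.49, with an adjusted p of 0.0621. After siSF3B1 in DMSO it was at 0.345, 0.531 and 1.16 CPM and changed by -0.81 (SE 0.18). RMI1 changed by -0.41 (SE 0.084) with RAS and rose by 0.22 (SE 0.084) after siSF3B1 in 4OHT.

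**Figure D2:**
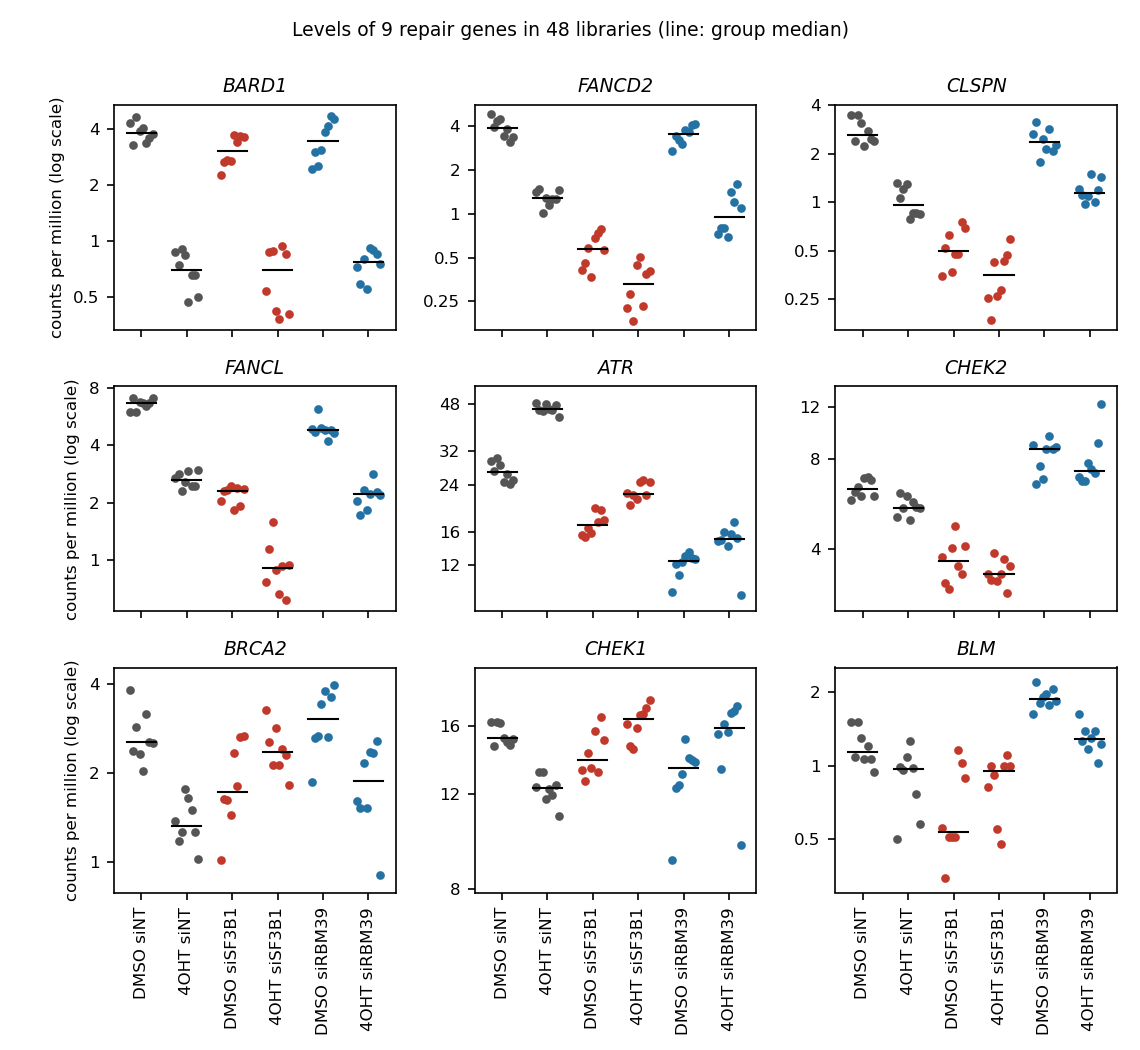
Level of 9 members in each library (points, CPM on a log scale) in the 6 groups, with a line at the group median. BARD1 drops from a median of 3.81 to 0.699 CPM with RAS, FANCD2 and CLSPN are lowest in the siSF3B1 groups, and ATR is lowest in the siRBM39 groups.

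Both siRNAs of a target were compared with siNT on their own. Of the members that fell after siSF3B1, 15 of 20 in DMSO and 15 of 15 in 4OHT fell with each siRNA. Those without that support in DMSO were BARD1, BRCA2, XRCC3, RAD54L and BLM. Of the members that rose after siSF3B1, 1 of 3 in DMSO and 3 of 6 in 4OHT rose with each siRNA, the others being TOPBP1 and PALB2 in DMSO and FANCF, RAD51C and RMI1 in 4OHT. For siRBM39, 8 of 10 falls and 3 of 4 rises in DMSO, and 8 of 12 falls and 4 of 7 rises in 4OHT, were called with each siRNA. Without that support were the falls of CHEK1 and FANCF and the rise of EXO1 in DMSO, and in 4OHT the falls of RAD50, RBBP8, FANCG and FANCL and the rises of FANCF, BRCA2 and BLM. Opposite calls of both siRNAs were seen for FANCC, and in DMSO for RAD51C (-0.30 with siRBM39-06 and 0.23 with siRBM39-08, pooled -0.01). For all genes the support by each siRNA was not counted, so the counts here only describe the members.

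The members that fell after siSF3B1 in both treatments were 13, namely ATM, ATR, CHEK2, CLSPN, FANCA, FANCD2, FANCE, FANCG, FANCI, FANCL, MRE11A, RBBP8 and XRCC3. After siRBM39, 8 fell in both treatments (ATM, ATR, FANCE, FANCG, FANCI, FANCL, RBBP8 and TOPBP1) and 3 rose in both (BLM, CHEK2 and XRCC2). Of all genes, 37.5% and 38.3% fell after siSF3B1 in DMSO and 4OHT. For siRBM39, 22.2% and 25.9% of all genes fell and 22.8% and 28.1% rose. The share of all genes called in both treatments was not counted, so these counts only describe the members.

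Whether RAS changed the effect of a knockdown was tested as an interaction. For siSF3B1, 12 members differed between 4OHT and DMSO, 9 with a higher and 3 with a lower value in 4OHT (36.7% of all genes, 16.9% higher and 19.8% lower). BRCA2 had the largest difference, 1.32 (SE 0.25, adjusted p = 3.20e-05), followed by BRIP1 with 0.99 (SE 0.20, adjusted p = 6.18e-05), CLSPN with 0.90 (SE 0.25) and FANCD2 with 0.83 (SE 0.26). For CLSPN and FANCD2 this was a smaller fall in 4OHT, where their siNT level was already lower, whereas for BRCA2 the direction turned. Differences of the opposite sign were -0.66 (SE 0.15) for ATRIP, -0.40 (SE 0.086) for PALB2 and -0.38 (SE 0.11) for ATR. The other members that differed were CHEK1, FANCG, BRCA1, RAD54B and BLM, with 0.42 to 0.77. With 1 replicate number left out, 5 calls were lost: ATR and BLM without replicate 3, FANCG without replicate 2, FANCD2 without replicate 4, and BRCA1 without replicate 1, 2 or 4. Of the 12 proliferation markers 7 had a higher value in 4OHT and 0 a lower one, and their part was not tested.

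For siRBM39, 4 members differed between treatments, 2 higher and 2 lower in 4OHT (14.2% of all genes, 6.18% higher and 7.98% lower): ATR by -0.51 (SE 0.11), ATRIP by -0.51 (SE 0.15), CHEK1 by 0.57 (SE 0.12) and FANCF by 0.43 (SE 0.10). Without the library that stood apart, 7 members differed, and these 4 values were -0.44, -0.68, 0.64 and 0.43. The call of ATRIP was lost without replicate 1, 2 or 3. ATR, ATRIP and CHEK1 thus differed between treatments for both targets and in the same direction, in comparisons that rest on the same siNT libraries. In siNT cells 4OHT had raised ATR and ATRIP and lowered CHEK1, and the part of this in the differences was not tested.

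**Figure D3:**
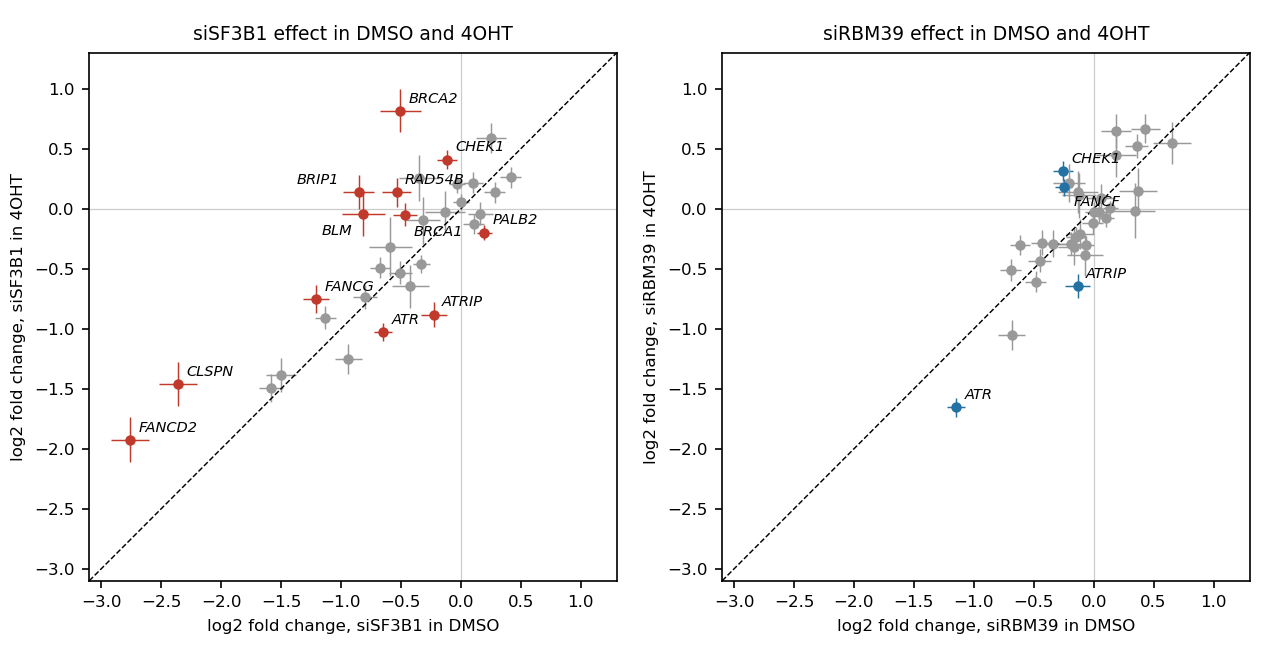
Log2 fold change of the 33 genes after siSF3B1 (left) and siRBM39 (right) in DMSO (x) and 4OHT (y), with bars of 1 SE, a dashed line where both are equal, and coloured, named points where the difference passed the test. On the left BRCA2 lies at -0.50 and 0.82, and on the right ATR lies farthest down, at -1.15 and -1.66.

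Both knockdowns were also compared directly. In DMSO 23 members differed (66.6% of all genes), 17 lower and 6 higher with siSF3B1 (34.8% and 31.8%), and in 4OHT 17 differed (69.6%), 12 lower and 5 higher (36.7% and 32.9%). The largest differences in DMSO were FANCD2 with -2.59 (SE 0.16), CLSPN with -2.16 (SE 0.16) and BLM with -1.47 (SE 0.17), and in 4OHT CLSPN with -1.67 (SE 0.18), FANCD2 with -1.61 (SE 0.19) and CHEK2 with -1.26 (SE 0.10). TOPBP1 was higher with siSF3B1 in both, by 0.77 (SE 0.089) and 0.74 (SE 0.091).

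Levels can be compared between genes only per length, for which the cRPKM that the authors deposited (RPKM corrected for the mappable length of each gene) was used. In DMSO siNT the members ran from 0.258 ± 0.054 cRPKM for BRCA2 and 0.279 ± 0.048 for BLM to 12.6 ± 0.71 for RAD50 and 13.9 ± 0.58 for NBN (mean ± SD, n = 8). Neighbours in this order often overlapped: BRCA2 and BLM ranged from 0.190 to 0.360 and from 0.220 to 0.350 cRPKM, and RAD50 and NBN from 11.5 to 13.9 and from 13.1 to 14.9. RAD51C, next below RAD50, at 5.75 to 7.69 cRPKM, did not overlap it. Among the Fanconi genes the order ran from FANCM (0.569 ± 0.067) to FANCF (4.55 ± 0.32).

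Other genes of the same pathways were read from a list of 58, of which 51 were tested. With RAS 25 fell and 13 rose, after siSF3B1 31 fell and 12 rose in DMSO and 29 fell and 15 rose in 4OHT, and after siRBM39 13 fell and 9 rose in DMSO and 15 fell and 15 rose in 4OHT. Of all genes 38.9% fell and 39.5% rose with RAS, 37.5% and 34.8% and then 38.3% and 36.8% after siSF3B1, and 22.2% and 22.8% and then 25.9% and 28.1% after siRBM39. Called in either direction were 74.5%, 84.3%, 86.3%, 43.1% and 58.8% of the 51, against 78.4%, 72.3%, 75.1%, 45% and 54.0% of all genes. Their median log2 fold changes were -0.24, -0.32, -0.40, 0.0011 and -0.022 in that order. With RAS the largest falls were C16orf75 (RMI2, the other partner of BLM) at -2.70 (SE 0.12), C19orf40 (FAAP24, which binds FANCM) at -1.45 (SE 0.15) and USP1 (which removes ubiquitin from FANCD2) at -1.43 (SE 0.073), and the largest rises were ERCC1 (1.38, SE 0.088), RPA2 (0.91, SE 0.049) and HUS1 (0.89, SE 0.062). After siSF3B1, FAM175A (Abraxas, of the BRCA1-A complex) changed by -1.78 (SE 0.094) in DMSO and -2.12 (SE 0.10) in 4OHT and POLQ (a polymerase of the alternative end-joining route) by -1.75 (SE 0.18) and -1.45 (SE 0.21). The helicase gene RTEL1 rose by 1.47 (SE 0.17) and 1.55 (SE 0.17), RAD9A by 1.28 and 1.32 and HUS1 by 1.34 and 1.23, the latter 2 being subunits of the checkpoint clamp. After siRBM39 the nuclease gene FAN1 changed by -0.58 (SE 0.069) and -0.83 (SE 0.069) and RAD52 by -0.55 (SE 0.088) and -0.79 (SE 0.091), while RTEL1 rose by 0.62 (SE 0.17) and 0.76 (SE 0.17).

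Non-homologous end joining, the route that religates breaks without a template, had more rises than falls after siSF3B1. Of 10 genes listed 9 were tested, and 7 rose and 1 fell after siSF3B1 in each treatment, where 34.8% and 36.8% of all genes rose and 37.5% and 38.3% fell. POLM was at 6.30, 7.75 and 9.14 CPM in DMSO siNT and 14.3, 16.8 and 18.4 CPM in DMSO siSF3B1 and rose by 1.06 (SE 0.074), and in 4OHT by 1.34 (SE 0.074). XRCC4 rose by 0.69 (SE 0.12) and 0.61 (SE 0.12), and DCLRE1C (Artemis) changed by -0.33 (SE 0.11) and -0.30 (SE 0.11). With RAS LIG4 (1.09, SE 0.12) and XRCC5 (0.33, SE 0.034) rose, and XRCC4, NHEJ1, DCLRE1C and POLL fell by 0.27 to 0.45. After siRBM39 in DMSO XRCC5 rose by 0.09 (SE 0.034) and XRCC4 and DCLRE1C fell by 0.52 and 0.40, and in 4OHT NHEJ1 rose by 0.20 (SE 0.050).

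Splicing of the members was measured as the per cent spliced-in (PSI), the share of junction reads that include an exon, an intron or a site. The event table lists 1379 events in 32 of the 33 members (713 exon, 594 intron and 72 splice site events, and 0 in FANCF). None of them passed the filters planned for the test, which ask for a coverage score in each of 48 libraries and a PSI range of at least 5, so 0 were tested there. Reads were therefore summed over the 8 libraries of a group, a choice made after seeing the data, and events with at least 80 reads in each group were tested. These were 130 events in 11 members (92 exons, 37 introns and 1 site), among them 43 in RAD50, 22 in NBN, 13 in CHEK1 and 13 in ATM. Members at low levels such as FANCD2, CLSPN, BARD1 and BRCA2 had 0 events at this depth.

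Lower inclusion was called for 4 exons after siSF3B1 in DMSO, 8 after siSF3B1 in 4OHT and 3 after siRBM39 in 4OHT, 9 different exons in all, and with these filters no event was called with higher inclusion (quasi-binomial test on summed reads, adjusted p under 0.05 and at least 5 points). As a share of the 92 member exons this was 4.35%, 8.70% and 3.26%, against 5.44%, 7.27% and 1.96% of 64411 exons of all genes. The counts rest on few reads: they were 1 to 2, 3 to 6 and 1 to 2 with 1 replicate number left out, 0, 2 and 1 with siNT1 alone as control, and 0, 4 and 1 with siNT2 alone. In simulated data the test on summed reads recovered 72 of 200 exons with lowered inclusion (36%), so an event not called may have changed. With RAS (0.197% of all exons) and after siRBM39 in DMSO (1.52%) 0 were called, with 1 and 5 events at an unadjusted p under 0.05, and 0 differed between treatments for either target (0.00155% of all exons for siSF3B1 and 0% for siRBM39), with 0 at an unadjusted p under 0.05. Of the 37 introns 0 were called in these comparisons, against 1.76% and 2.96% of all introns after siSF3B1 in DMSO and 4OHT and 0.191% and 0.245% after siRBM39. This rests on the filter for balanced reads at both ends of an intron. Without it, on summed reads, the NBN intron HsaINT0110470 had higher retention after siRBM39 (30.8 points in DMSO, adjusted p = 0.00341, and 20.3 points in 4OHT, adjusted p = 0.0118) and lower retention after siSF3B1 in 4OHT (-11.0 points, adjusted p = 0.0325), and the NBN intron HsaINT0110471 had higher retention after siRBM39 in DMSO (8.66 points, adjusted p = 0.0195). In the planned limma test without that filter the latter differed by 8.04 points (adjusted p = 1.28e-06). On summed reads with a minimum of 40 per group (quasi-binomial test), further exons had lower inclusion. The ATR exon HsaEX0007189 differed by -61.4 points after siRBM39 in DMSO and -69.5 points in 4OHT (adjusted p = 0.00357 and 5.54e-05). After siSF3B1 in 4OHT it differed by -45.7 points (adjusted p = 0.000457). The TOPBP1 exon HsaEX6058618 differed by -25.9 points after siSF3B1 in DMSO (adjusted p = 0.00631).

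CHEK1 and RAD51C exons with called changes are printed to show what was left out of the transcript, with capitals for the exon and lower case for 50 intron bases before and 10 after it. Events are placed in the file in GRCh38, and the sequence was read from GRCh37 at the annotated exon with the same length and the same flanking intron lengths, with its GRCh37 position given beside its name. CHEK1 lies on chromosome 11 (exons of ENST00000438015.7, 13 in all) and RAD51C on chromosome 17 (ENST00000337432.9, 9 exons), both on the plus strand, and the exons are coding.
CHEK1 exon 3, chr11:125497502-125497725: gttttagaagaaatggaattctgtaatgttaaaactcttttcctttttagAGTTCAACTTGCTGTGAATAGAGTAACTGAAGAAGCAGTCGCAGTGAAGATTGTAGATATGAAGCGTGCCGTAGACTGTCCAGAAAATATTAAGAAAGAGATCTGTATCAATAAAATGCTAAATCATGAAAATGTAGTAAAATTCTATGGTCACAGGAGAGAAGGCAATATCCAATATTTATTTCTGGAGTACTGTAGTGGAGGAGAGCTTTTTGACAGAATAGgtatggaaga
CHEK1 exon 5, chr11:125499286-125499355: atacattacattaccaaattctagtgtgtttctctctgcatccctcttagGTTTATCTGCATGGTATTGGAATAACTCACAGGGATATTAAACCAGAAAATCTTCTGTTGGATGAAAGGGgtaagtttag
CHEK1 exon 8, chr11:125507344-125507439: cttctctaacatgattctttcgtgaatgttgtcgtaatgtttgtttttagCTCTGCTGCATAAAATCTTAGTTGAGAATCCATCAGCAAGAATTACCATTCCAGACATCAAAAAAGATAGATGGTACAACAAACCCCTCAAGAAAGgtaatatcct
RAD51C exon 7, chr17:56801401-56801461: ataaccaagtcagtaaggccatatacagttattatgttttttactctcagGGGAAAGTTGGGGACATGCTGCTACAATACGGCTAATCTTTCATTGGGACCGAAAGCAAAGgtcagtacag
CHEK1 exons 3, 5 and 8 are 224, 70 and 96 bases long and RAD51C exon 7 is 61 bases long, and of these lengths 96 is a multiple of 3.

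CHEK1 exon 3 (HsaEX0015138, chr11:125627607-125627830 in GRCh38) was included in 94.3% of 195 reads in DMSO siNT (95% exact interval 90.1 to 97.2) and 96.3% of 150 reads in 4OHT siNT. In single libraries PSI was 81.8 or more with siNT, 48.4 to 92.6 in DMSO siSF3B1 and 33.3 to 89.5 in 4OHT siSF3B1, so that the groups overlapped. Over the summed reads it was 66.8% (59.1 to 74.4) in DMSO siSF3B1 and 57.1% (47.95 to 65.6) in 4OHT siSF3B1, with adjusted p = 0.00576 and 0.00205. After siRBM39 it was 82.6% and 71.8%, and these differences of -11.7 and -24.5 points had adjusted p-values of 0.616 and 0.0594. Intervals cover counting error only, since reads copied by PCR are not separate molecules.

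CHEK1 exon 8 (HsaEX0015139) was at a PSI of 100 in each siNT and each siRBM39 library, and at 54.6 to 88.2 in DMSO siSF3B1 and 41.7 to 79.0 in 4OHT siSF3B1. No siSF3B1 library reached the siNT value in either treatment. Over the summed reads the exon was included in 73.4% (65.3 to 80.3) in DMSO and 63.4% (55.2 to 71.5) in 4OHT, with adjusted p = 0.0343 and 0.0168. CHEK1 exon 5 (HsaEX6005459) was at 100% in both siNT groups and at 73.6% and 60.4% after siSF3B1 in DMSO and 4OHT, of which the second was called (adjusted p = 0.0403) and the first was not (adjusted p = 0.0639). As gene counts, CHEK1 had risen after siSF3B1 in 4OHT.

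RAD51C exon 7 (HsaEX0051901, chr17:58724040-58724100 in GRCh38) was included in 96.5% of 228 reads in DMSO siNT and 94.1% of 195 reads in 4OHT siNT. In single libraries it ranged from 92.4 to 100 and from 84.6 to 100 with siNT, and from 54.3 to 86.5 and from 59.3 to 82.2 with siSF3B1, without overlap. After siSF3B1 it was 73.7% (67.7 to 78.8) and 70.1% (63.1 to 76.1), with adjusted p = 0.000964 and 0.00140, and after siRBM39 96.9% and 94.5%. RAD51C counts had risen after siSF3B1 in both treatments.

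NBN held 5 of the 9 exons, on chromosome 8. Its exon 5 of 16 (HsaEX0041877, chr8:89978220-89978323 in GRCh38, 104 bases) was included in 99.1% of 196 reads in DMSO siNT and 98.9% of 365 in 4OHT siNT, and in 77.2% (70.6 to 83.1) and 64.0% (58.6 to 68.9) after siSF3B1. With siRBM39 it was 83.7% and 78.9%, of which the 4OHT value was called (adjusted p = 0.0102) and the DMSO value was not (adjusted p = 0.303). NBN exon 3 (HsaEX0041875, 149 bases) stayed near 99.5% and 99.4% with siNT and was 97.8% and 98.5% with siSF3B1, but 90.8% and 91.4% with siRBM39, called in 4OHT (adjusted p = 0.0390). The exon at chr8:89980734-89980852 (HsaEX0041876, 119 bases as listed, 160 as annotated) was 100% and 99.7% with siNT and 88.7% and 78.2% with siSF3B1, and exon 12 (HsaEX0041872, 69 bases) 100% in both and 97.6% and 85.0%. For both of these the 4OHT value was called and the DMSO value was not. In DMSO the siSF3B1 libraries of HsaEX0041876 still lay below each siNT library (82.3 to 96.3 against 100), while those of exon 12 overlapped.

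A further NBN exon of 50 bases (HsaEX0041874), not coding in its annotated transcript, behaved otherwise, as it was mostly left out in control cells. It was included in 18.3% of 107 reads in DMSO siNT (11.8 to 27.4) and 30.5% of 210 reads in 4OHT siNT (24.3 to 37.2). With siSF3B1 this was 5.37% and 7.33%, and with siRBM39 5.83% and 7.43%. In 4OHT siNT libraries ranged from 20 to 41.2, above each 4OHT siSF3B1 library (0 to 12.8) and each 4OHT siRBM39 library (0 to 13.5), and both 4OHT differences were called (adjusted p = 0.000156 and 0.00194). The difference of 12.2 points with RAS was not called.

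**Figure D4:**
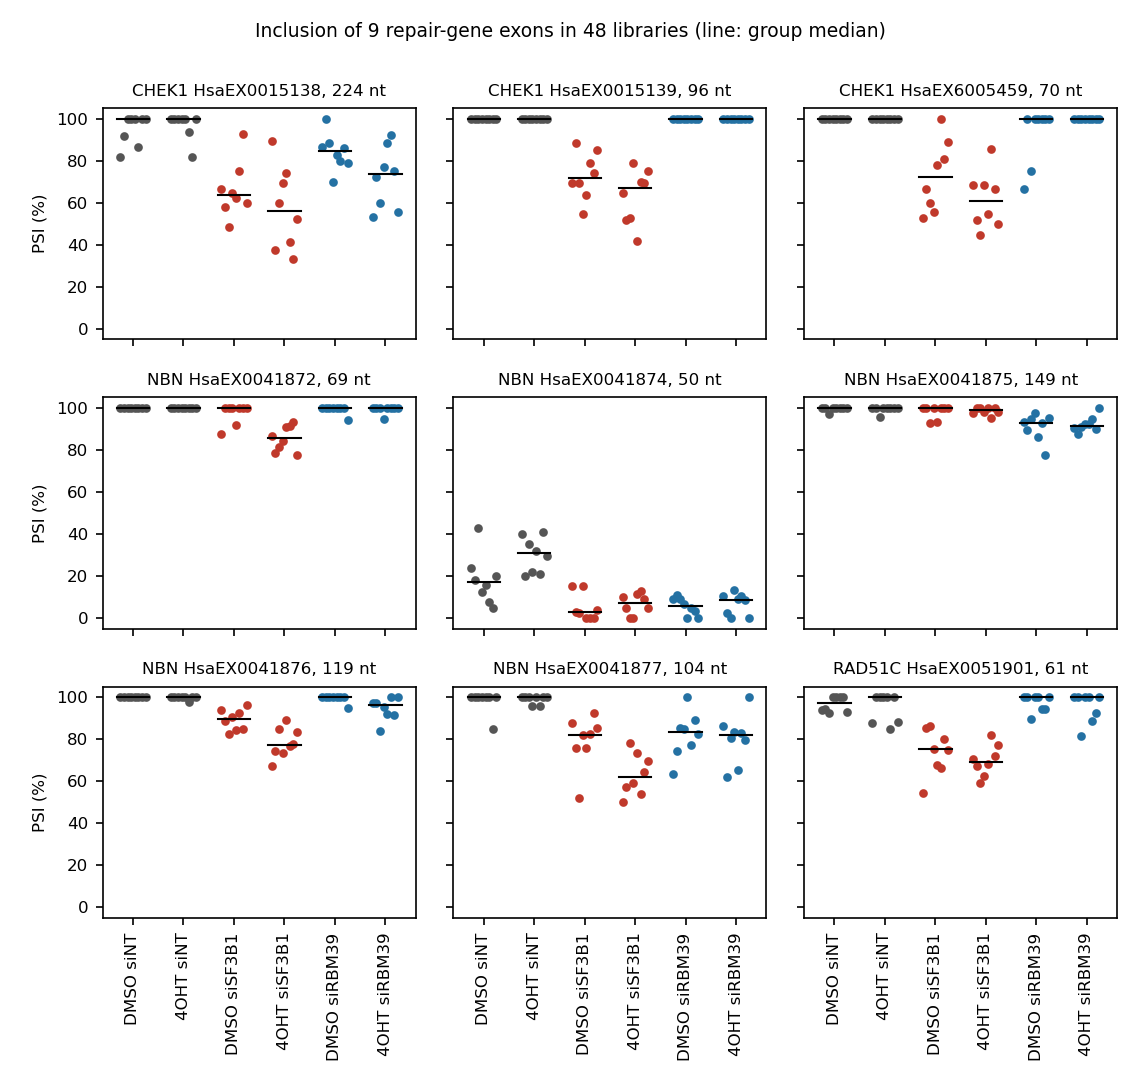
PSI in per cent of the 9 exons with a called change, in each library (points) of the 6 groups, with a line at the group median. CHEK1 HsaEX0015139 drops from 100 with siNT to medians of 71.6 and 67.0 with siSF3B1, and NBN HsaEX0041874 is highest in 4OHT siNT, with a median of 30.8.

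The same 9 exons were compared between groups of 8 libraries with a two-sided exact permutation test of mean PSI, in 5 comparisons each. They were chosen by their summed reads in the same libraries, so these values are a description beside that test. The unadjusted p was under 0.05 in 25 of 45 comparisons. For CHEK1 exon 8 after siSF3B1, for example, mean PSI differed by -27.1 points in DMSO and -37.0 points in 4OHT, each with an exact p of 0.000155, the smallest that 12870 splits allow.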

How the data were processed

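Polyadenylated RNA of 48 libraries, 6 groups of 8, was read. The authors mapped and counted with vast-tools version 2 against its human hg19 library and deposited raw counts per gene, together with cRPKM (RPKM corrected for mappability, made by the authors). The deposited inclusion table, from the same tool, gives PSI as a percentage per event with read scores, and its event coordinates fall inside the genes in GRCh38. An authors' table of normalised CPM was not used here.

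Counts were tested with edgeR 4.0.16 (R 4.3.3, limma 3.58.1): genes with at least 1000 counts in total, TMM scaling, 6 group means, quasi-likelihood test, and Benjamini-Hochberg adjustment over 12535 genes. CPM were scaled by the TMM factors. Planned splicing tests used limma on logit PSI, and, since 0 member events passed its filters, a quasi-binomial test on summed reads was added after seeing the data. Scripts were tested on simulated data. There the test on summed reads recovered 72 of 200 exons with lowered inclusion (36%), and limma on logit PSI 191 of 200 (95.5%). These shares do not rank the tests, since the limma data were drawn without read counting and over fewer, better covered exons (7513 against 64413). For edgeR 6.49% of the simulated calls were false. Alternatives were other minimums, DESeq2 1.42.0 size factors, single siRNAs and left-out replicates.

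Values were given for the 4 members that rose and the 4 that fell most in a comparison, past the threshold and without overlap between groups. For other lists the 3 largest changes per direction could be named. Members and lists were chosen with earlier results of these data known. The methods mention 3 replicates and the labels give 4. A treatment label of 4 libraries titled siNT2 with 4OHT says siNT1, and the titles were used. Replicate pairs of 1 siRNA and treatment differed beyond sampling noise (chi-square per degree of freedom 1.89 to 468 over 72 pairs), so no pair was counted as 1 library. Depths of 31467221 to 52734636 counts left the lowest members with few counts per library, and few junction reads per event.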

Additional observations from a re-analysis of the deposited data

Results flagged for a closer look

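In 17 of 198 groups of 8 libraries of a member, 1 library lay far from the others (gap to the nearest library over the range of the group), where chance alone gives about 9.9. Replicate 4 of siRBM39-08 in 4OHT was that library in 11 of them. It was lowest for ATM (23.5 CPM, next 47.4), ATR (9.30, next 14.2), TOPBP1 (8.61, next 14.5), MRE11A (5.13, next 7.53), RAD50 (30.2, next 53.9), NBN (48.2, next 80.2) and RMI1 (4.23, next 6.55), and highest for ATRIP (11.99, next 6.35), CHEK2 (12.2, next 9.06), FANCG (6.79, next 4.10) and XRCC3 (2.25, next 1.29). The other 6 were spread over 5 libraries. In DMSO siRBM39, replicate 1 of siRBM39-06 was lowest for CHEK1 (9.06 CPM) and highest for FANCG (8.34), and its replicate 3 was highest for FANCL (6.19). In DMSO siNT, replicate 3 of siNT1 was highest for FANCA (5.21) and replicate 4 lowest for PALB2 (11.1), and replicate 1 of siSF3B1-13 in DMSO was highest for FANCF (14.1).

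The effect of a knockdown differed between 4OHT and DMSO for 16 combinations of member and target (interaction term, edgeR, adjusted p from 3.20e-05 to 0.0191). For siSF3B1 the differences in log2 fold change, 4OHT minus DMSO, were 1.32 for BRCA2, 0.99 for BRIP1, 0.90 for CLSPN, 0.83 for FANCD2, 0.77 for BLM, 0.68 for RAD54B, 0.52 for CHEK1, 0.45 for FANCG, 0.42 for BRCA1, -0.38 for ATR, -0.40 for PALB2 and -0.66 for ATRIP. For siRBM39 they were 0.57 for CHEK1, 0.43 for FANCF, -0.51 for ATR and -0.51 for ATRIP.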

How the results depend on the processing

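Of 769 alternative values for 47 results on single members, 742 kept direction and side of the threshold, 27 lost significance and 0 reversed. Of 375 alternative counts, 327 stayed within 1.5 times and 48 did not. The causes were not tested, apart from the fewer genes or samples of a setting. With at least 10000 counts, 18 members remained testable. Members then lower were 8 with RAS, 8 after siSF3B1 in DMSO and 8 in 4OHT, those higher 1 after siRBM39 in DMSO and 3 in 4OHT, and those different 6 in the siSF3B1 treatment difference, and 10 and 11 between the knockdowns in DMSO and 4OHT. After siSF3B1 in DMSO 5 rose with only the groups compared, and 5 with siNT2 alone. After siRBM39 in DMSO 16 fell with siRBM39-06 alone and 1 rose with siNT1 alone. The siRBM39 treatment difference held 9 members with siRBM39-06 alone, 2 with siNT1 alone, 8 with one group per siRNA and 7 without replicate 4 of siRBM39-08 in 4OHT. Counts of members under alternative settings, here and below, are given without the share of all genes in that setting. They therefore only describe the members. The 27 lost calls were RAD51C after siSF3B1 in 4OHT, BLM after siRBM39 in DMSO, and treatment differences of ATR, CLSPN, FANCG, FANCD2, BRCA1, BLM and ATRIP.

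Planned event tests with only the groups compared called 5 after siSF3B1 in 4OHT, 1 after siRBM39 in DMSO and 1 in 4OHT. They held 37 tests of member events over all comparisons, and those without the balance filter 7. Shares of all events called under these alternatives are not given, so the counts in this paragraph only describe the members. Without the balance filter 1 was called after siRBM39 in DMSO, higher retention of the NBN intron HsaINT0110471 by 8.04 points (adjusted p = 1.28e-06, limma), which was also called with siRBM39-08 alone (9.59 points) and without replicate 4 (7.09, and 5.46 in 4OHT). With siRBM39-06 alone 1 was called in each treatment, with siRBM39-08 alone 1 in DMSO, and without the library that stood apart 1 in 4OHT. On summed reads, siSF3B1-16 alone gave 1 after siSF3B1 in DMSO. With siNT1 alone 0, 2 and 1 and with siNT2 alone 0, 4 and 1 were called (siSF3B1 in DMSO and 4OHT, siRBM39 in 4OHT). At least 160 reads gave 4 after siSF3B1 in 4OHT, at least 40 reads gave 1 and no balance filter 2 after siRBM39 in DMSO, siRBM39-08 alone 1 in 4OHT, and without the library that stood apart 3.

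Leaving out each replicate number gave, higher and lower, 5 to 6 and 20 to 22 with RAS, 3 to 4 and 18 to 20 after siSF3B1 in DMSO, 5 to 6 and 14 to 15 in 4OHT, 2 to 3 and 9 to 12 after siRBM39 in DMSO, and 5 to 7 and 8 to 11 in 4OHT. Treatment differences were 10 to 11 and 3 to 7, and the knockdowns differed in 19 to 21 and 14 to 17. Events on summed reads were 1 to 2, 3 to 6 and 1 to 2 (siSF3B1 in DMSO and 4OHT, siRBM39 in 4OHT), planned events 0 to 1 (siSF3B1 in 4OHT), 0 to 2 and 0 to 2 (siRBM39), and single exons under 0.05 were 23 to 23. Deviations of a replicate from the mean of its siRNA and treatment correlated between same-numbered replicates of the 2 groups compared by -0.0788 to 0.13. The main fit did not pair them, and low correlations cannot show that they were handled apart. With the replicate block, 6 rose and 21 fell with RAS, 3 and 21 after siSF3B1 in DMSO, 6 and 15 in 4OHT, 3 and 10 after siRBM39 in DMSO, 7 and 12 in 4OHT, 12 and 4 treatment differences were called, and 22 and 16 members differed between knockdowns.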
